A study of Mus musculus with 4 samples.

Results

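The secreted Wnt antagonists comprised 8 genes, Sfrp1, Sfrp2, Sfrp4, Frzb, Dkk1, Dkk2, Dkk3 and Wif1, taken by symbol from a table of 50600 genes, in which all 8 were found. RNA was sequenced from adipose-derived regenerative cells (ADRCs), mesenchymal cells that grow out of inguinal and axillary fat pads, and from ADRCs given 6 transcriptional factors by lentivirus. The ADRC group held 2 libraries of passage 2 cells from mice 8 weeks old with the strain label C57BL/6J, although their titles also carry the term αMHC-GFP positive control. The 2 libraries of the 6F group were made from cells at passage 2 of C57BL/6-Tg (Myh6-EGFP) MG3Tm; MG3 mice, taken 3 weeks after gene transfer by sorting for GFP, which the cardiac Myh6 promoter drives in that strain. The groups therefore differed in the factors, culture time, sorting and labelled strain together, and these cannot be told apart.

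Wnt proteins signal through Frizzled receptors and the co-receptors Lrp5 and Lrp6, and in the canonical branch stabilise beta-catenin. Secreted Frizzled-related proteins (Sfrp1, Sfrp2, Sfrp4 and Frzb, also called Sfrp3) carry a Frizzled-like cysteine-rich domain and bind Wnts outside the cell, as does Wif1 through a different domain. Dkk1 and Dkk2 bind Lrp5 and Lrp6 instead, whereas Dkk3 is a divergent family member that is not a typical Lrp6 ligand. In fat, canonical Wnt signals restrain adipocyte differentiation, and in the embryo their inhibition at the right stage favours cardiac fate.

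Libraries are named a and b within each group, in no order, since the columns carry no replicate number. Exon reads came to 2273897 and 2662128 for ADRCs and to 7593772 and 6986223 for 6F cells. Mapped reads, estimated from the authors' mean levels per kb of exon, came to 16053842 and 16519990 for ADRCs and to 12610972 and 11728954 for 6F cells. By that estimate exon reads were 14.2% to 16.1% and 59.6% to 60.2% of mapped reads, so exon depth and library composition also moved with the group. Of the markers of the labelled cell type, all 10 mesenchymal stromal genes were read in both groups, some barely. Nt5e had 6 and 1 reads and Lum 4 and 6 in the ADRC libraries. In the test described further on, 4 of the 10 were higher in 6F cells, Nt5e and Lum among them, and 4 were lower. The 6F library a stood apart: 4 Y-linked genes (Ddx3y, Eif2s3y, Kdm5d and Uty) had 1671 reads in it and 0 in each other library. Xist, the RNA that coats the inactive X chromosome of female cells, had 4 reads in 6F library a against 1238 and 1452 in the ADRC libraries and 10507 in 6F library b. The labels give no sex, and these 5 genes were looked at after the spread between the 6F libraries had been seen. The column name of 6F library a also bears another lane mark than those of the other 3 libraries, so sex-linked reads, lane and any difference between cultures cannot be told apart between the 6F libraries. The members' fold changes are therefore also given without it, where they could be fitted, as are those of the pathway genes named as higher or lower. A fit without it assumes that the other 6F library varies like the ADRC pair.

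Sfrp2 and Dkk2, the pair of members that split between the 6F libraries (values further on), lie on chromosome 3, and the 250 bases before their annotated starts are shown from RefSeq on GRCm38.p6. The windows are chr3:83766071-83766320 for Sfrp2 and chr3:132085042-132085291 for Dkk2, both on the plus strand, and capitals mark a TATAAA match.
Sfrp2: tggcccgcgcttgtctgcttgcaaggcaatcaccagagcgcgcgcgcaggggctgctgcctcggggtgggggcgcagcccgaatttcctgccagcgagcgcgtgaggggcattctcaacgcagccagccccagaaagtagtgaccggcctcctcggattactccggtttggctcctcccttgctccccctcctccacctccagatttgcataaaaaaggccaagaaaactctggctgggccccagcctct
Dkk2: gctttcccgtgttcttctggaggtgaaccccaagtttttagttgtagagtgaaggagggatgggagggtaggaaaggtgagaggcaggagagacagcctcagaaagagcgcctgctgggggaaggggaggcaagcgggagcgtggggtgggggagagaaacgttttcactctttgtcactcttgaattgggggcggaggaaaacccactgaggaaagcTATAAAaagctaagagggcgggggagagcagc
Promoter entries were matched for 5 of the 8 members. Matches to TATAAA, the TATA box, were sought on both strands of the 250 bases. CTTTGA, the core read by the TCF and LEF factors that partner beta-catenin in the nucleus, was sought in the same way. So was a GATA factor site, spelled AGATAA. Dkk2 held TATAAA from base -32 on the coding strand, and Sfrp2 held an exact match to none of the 3, so that the pair shared no match. Variants of the motifs were not sought. Of the other members matched, Dkk1 held TATAAA from base -54 and CTTTGA from bases -117 and -174, on either strand. Frzb held CTTTGA from base -95 and Wif1 held TATAAA from base -232, both on the opposite strand. Among 32851 such windows of all genes, the first motif was in 12.4%, the TCF core in 13.8% and the GATA site in 9.99%. GC content was 63.6% for Sfrp2 and 55.6% for Dkk2, against a median of 52.4% over all windows.

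Sfrp1 and Dkk3 rose in the sorted 6F cells with every library in or out, Sfrp4 was at a low level and had more reads in 6F cells, Sfrp2 and Dkk2 went opposite ways in the 2 6F libraries, Frzb averaged 2.42 CPM in ADRCs and 2.58 CPM in 6F cells and did not pass the test, and Dkk1 and Wif1 were at or near 0 reads. Of the 8 members, 6 had enough reads for a test, which called Sfrp1 and Dkk3 higher and 0 lower and left Sfrp2, Frzb and Dkk2 uncalled. Sfrp4 met the minimum of reads through the 6F libraries alone, where it is high, so its direction followed from the filter and its passing the threshold is not counted as a call. The test was edgeR's quasi-likelihood test with a Benjamini-Hochberg adjusted p under 0.05, over 12573 genes, of which 24.2% were called higher and 22.8% lower, 47% in all. Sfrp1 and Dkk3, and Sfrp4 with the same limit, had both 6F libraries above both ADRC libraries and 0 members had both below, against 40.5% and 37.4% of tested genes. No member was lower at an unadjusted p under 0.05 either, and the DESeq2 Wald test also called 0 lower, with 2 higher. Differences between bulk samples do not separate fewer expressing cells from less RNA per cell.

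**Figure D1:**
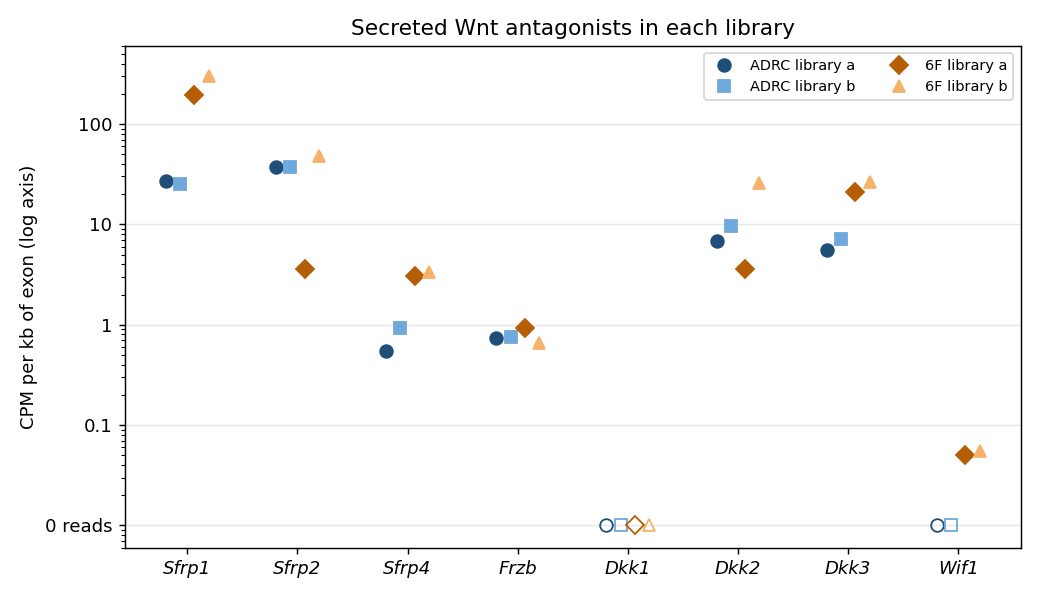
Exon reads per kb of exon, scaled to library size (CPM per kb, log axis) of each secreted Wnt antagonist in the 2 ADRC and 2 6F libraries, 1 point per library, with open symbols at 0 reads. Sfrp1 and Dkk3 lie higher in both 6F libraries, whereas the 6F points of Sfrp2 and Dkk2 fall on either side of the ADRC points.

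Sfrp1 (ENSMUSG00000031548; GRCm38 chromosome 8, 23411502 to 23449632, plus strand) is a Wnt-binding antagonist made by many stromal cells. ADRCs gave 248 and 273 exon reads, and 6F cells gave 7100 and 9773. Scaled to TMM-adjusted library size (CPM), these were 119 and 110 CPM in ADRCs and 857 and 1311 CPM in 6F cells, and the groups did not overlap. The log2 fold change was 3.24 ± 0.25 (SE, n = 2 and 2; edgeR adjusted p = 0.000334), from a mean of 115 ± 6.31 to 1084 ± 321 CPM (SD). Omitting 6F library a gave 3.52, and omitting 6F library b gave 2.93. Sfrp1 was also the 1 member past a false discovery rate of 0.05 in the authors' deposited table, with a fold change of 9.84 and a rate of 1.92e-08, where 0.501% of 32555 genes were past it in that direction.

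Dkk3 (ENSMUSG00000030772; chromosome 7, 112116017 to 112159057, minus strand) is the divergent Dickkopf protein. ADRCs gave 39 and 59 reads and 6F cells gave 588 and 657, or 18.8 and 23.9 CPM against 71.0 and 88.1 CPM. Both 6F libraries lay above both ADRC libraries. Dkk3 rose by 1.89 ± 0.22 on the log2 scale (edgeR adjusted p = 0.0012), with 1.71 to 2.06 when each library was left out in turn and 2.04 without 6F library a. The authors' deposited table gave it a fold change of 3.74 at a false discovery rate of 1.

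Sfrp4 (ENSMUSG00000021319; chromosome 13, 19623104 to 19632994, plus strand), a secreted Frizzled-related protein also made in adipose tissue, was read 2 and 4 times in ADRCs and 44 times in each 6F library. In CPM it stood at 0.963 and 1.62 in ADRCs and at 5.31 and 5.90 in 6F cells, without overlap. The fitted log2 fold change was 2.07 ± 0.52 (SE), or 2.15 without 6F library a, and pooled reads, scaled to library size, stood 4.24-fold higher (95% exact Clopper-Pearson bounds 1.87 and 11.9). These values are a description, since Sfrp4 entered the fit only through the group where it is high. It had too few reads to be tested once the 6F libraries were thinned to the ADRC depth, and it did not pass the threshold with the DESeq2 test (adjusted p = 0.0819) or without ADRC library a or b (edgeR adjusted p = 0.158 and 0.0999). The deposited exon length of Sfrp4, 1756 bases, is shorter than the 4179 bases of its GENCODE exons, so its level per length depends on the annotation.

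**Figure D2:**
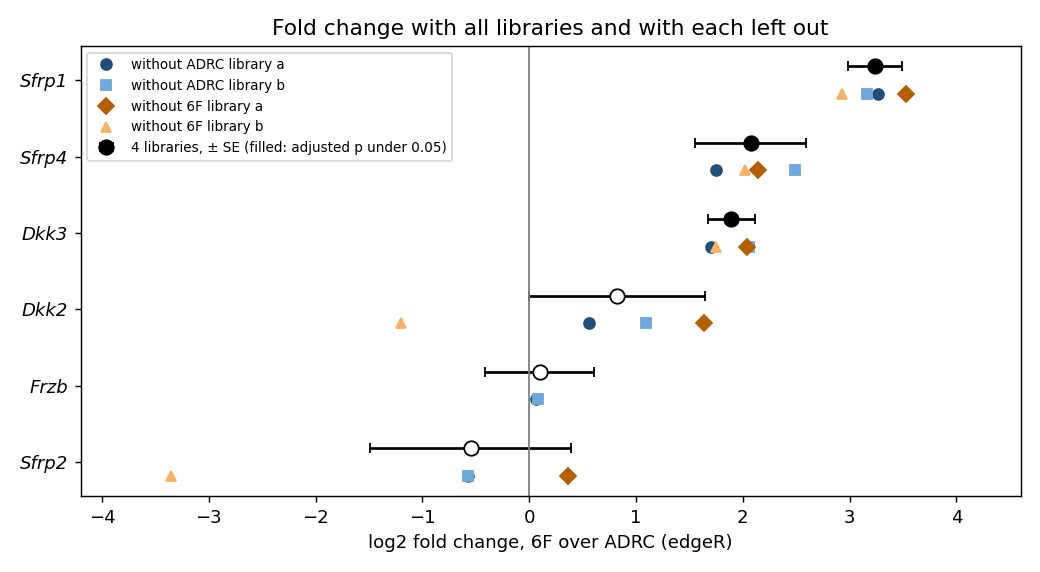
The log2 fold change of the 6 tested antagonists, 6F over ADRC, from edgeR with all 4 libraries (black, ± SE, filled where the adjusted p is under 0.05) and with each library left out (coloured). The values of Sfrp2 and Dkk2 lie on opposite sides of 0 depending on which 6F library was omitted, and those of Sfrp1, Dkk3 and Sfrp4 stay above 0. Sfrp4 is filled but passed the filter through 6F cells alone and is not counted as called. Frzb had too few reads to be tested once a 6F library was left out.

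Sfrp2 (ENSMUSG00000027996; chromosome 3, 83766321 to 83774316, plus strand), a Frizzled-related protein of fibroblasts and mesenchymal progenitors, was read 168 and 200 times in ADRCs. These were 80.9 CPM in each, so the ADRC libraries hardly differed. The 6F libraries had 64 and 770 reads, or 7.72 and 103 CPM, 1 below and 1 above the ADRC level. The library b level was 13.4 times that of library a, with a 95% exact counting interval of 10.4 to 17.5. Against the ADRC mean, 6F library a stood at 0.0955-fold and 6F library b at 1.28-fold. Over all 4 libraries the log2 fold change was -0.55 ± 0.94 (SE; edgeR adjusted p = 0.66). Omitting 6F library b gave -3.35, and omitting 6F library a gave 0.36. Gm26771, an annotated antisense gene that shares 347 exon bases with Sfrp2, had 0 reads in ADRCs but 4 and 2 in 6F cells, and the kit as named does not mark strand.

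Dkk2 (ENSMUSG00000028031; chromosome 3, 132085292 to 132180304, plus strand) binds Lrp5 and Lrp6 and can act as an antagonist or a weak agonist, depending on the receptors present. ADRCs gave 52 and 89 reads and 6F cells gave 109 and 712, or 25.0 and 36.0 CPM against 13.2 and 95.5 CPM. As for Sfrp2, library a lay below both ADRC libraries and library b above them. The level in 6F library b was 7.26 times that in library a (95% exact counting interval 5.93 to 8.96). The log2 fold change over all libraries was 0.82 ± 0.82 (SE; edgeR adjusted p = 0.442), with -1.20 on omitting 6F library b and 1.63 on omitting 6F library a.

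Few genes differed as much between the 6F libraries. Among 9300 tested genes read in both 6F libraries at a mean of at least 10 CPM, 0.763% were at least 4-fold apart, 60 higher and 11 lower in library b, and the median difference was 0.28 on the log2 scale. Sfrp2 ranked 8 by size of difference and Dkk2 ranked 22, with 0.086% and 0.237% of genes at least as far apart. The 7 genes ahead of Sfrp2 were Xist, Thbs4, H19, Eln, Lyz2, Nlrp4f and Capn6, named here after their values were seen, and 1 of them, Nlrp4f, was lower in library b. Sfrp1 and Dkk3 differed by 0.61 and 0.31 on the same scale, with 17.1% and 45.6% of genes at least as far apart. In the ADRC pair 0.0224% of 8937 genes were 4-fold apart, and Sfrp2 was not among them.

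Markers of other cells also moved between the 6F libraries. The 7 macrophage markers used summed to 267 and 290 CPM in the ADRC libraries, 10.4 CPM in 6F library a and 114 CPM in 6F library b. Of these, 6 of 7 were at least 2-fold apart between the 6F libraries on the log2(CPM + 1) scale, Lyz2 stood at 4.10 CPM in library a and 81.7 CPM in library b, and Ptprc, Adgre1 and Tyrobp had 0 reads in library a. The 8 endothelial markers summed to 40.9 and 44.1 CPM in ADRCs and 21.7 and 42.8 CPM in 6F cells, and the 7 adipocyte markers to 97.2 and 98.3 CPM against 61.8 and 34.6 CPM, with Lep at 0 in all libraries. Only 1 of the endothelial markers was at least 2-fold apart between the 6F libraries, Kdr at 1.69 and 13.3 CPM. Among the adipocyte markers 2 were, Adipoq at 9.05 and 1.21 CPM and Fabp4 at 20.2 and 5.10 CPM. Within these lists genes moved both ways. Of 5 endothelial markers tested 1 was called higher and 2 lower in 6F cells. Of 4 adipocyte markers tested 3 were lower and 1 was higher, Plin1, with 1 read in each ADRC library. The 10 stromal markers summed to 19206 and 16996 CPM in ADRCs and 12919 and 16295 CPM in 6F cells, and 1 of them, Pdgfra, was at least 2-fold apart, at 143 and 313 CPM. Smooth muscle and cardiomyocyte markers, of 7 and 8 genes, summed to 9166 and 4299 CPM in 6F library a and to 8814 and 4233 CPM in library b, with Nkx2-5 at 0. Single genes of these lists moved in opposite directions beneath the sums. In each list 1 gene was at least 2-fold apart, Des at 8.69 and 42.7 CPM and Nppa at 33.1 and 13.3 CPM in libraries a and b. Myh6 stood at 1546 and 870 CPM and Actc1 at 1979 and 2711 CPM. In the ADRC libraries a and b these lists stood at 4797 and 4926 CPM and at 30.3 and 42.9 CPM. The part of these cells, of sex and of lane in the split of Sfrp2 and Dkk2 was not tested.

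**Figure D3:**
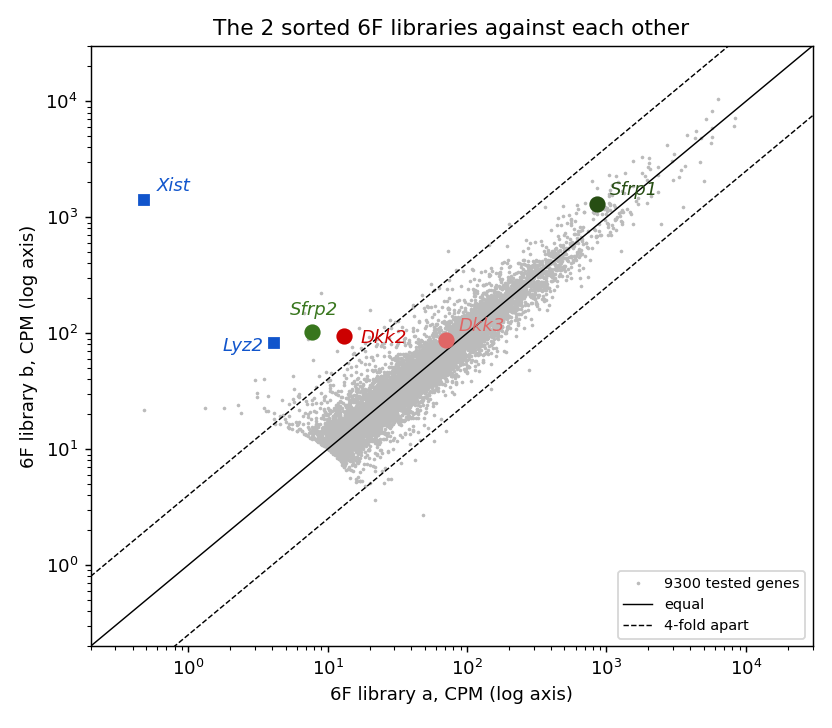
CPM of 9300 tested genes in 6F library a against 6F library b (log axes), with the line of equality and lines 4-fold away. Sfrp2 and Dkk2 lie beyond the upper 4-fold line with Xist and Lyz2, and Sfrp1 and Dkk3 lie between the lines.

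Frzb (ENSMUSG00000027004; chromosome 2, 80411970 to 80447625, minus strand), first known from cartilage, was read 5 and 6 times in ADRCs and 25 and 16 times in 6F cells. In CPM these were 2.41 and 2.43 against 3.02 and 2.15, and the groups overlapped. The log2 fold change was 0.10 ± 0.51 (SE; edgeR adjusted p = 0.887), and pooled reads differed 1.08-fold (95% exact counting bounds 0.544 and 2.32), so a change of up to about that size was not detectable at this depth. Dkk1 (ENSMUSG00000024868; chromosome 19, 30545863 to 30549665, minus strand), the founding Lrp6 antagonist and a target of canonical signalling, had 0 reads in all 4 libraries. A count of 0 allows up to 3 reads over a group, or 0.659 CPM in ADRCs and 0.191 CPM in 6F cells. Wif1 (ENSMUSG00000020218; chromosome 10, 121033960 to 121100650, plus strand) had 0 reads in the ADRC libraries and 1 in each 6F library, under the same floor, and no fold is given.

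Compared per kb of exon, the order of the members changed between the groups. In ADRCs Sfrp2 led at 37.6 CPM per kb in both libraries, ahead of Sfrp1 at 27.3 and 25.3 CPM per kb. Dkk2 followed at 6.76 and 9.72 and Dkk3 at 5.59 and 7.11 CPM per kb, and the ranges of this pair overlapped. Sfrp4 at 0.548 and 0.922 and Frzb at 0.744 and 0.750 CPM per kb overlapped as well. In 6F cells Sfrp1 led at 196 and 300 CPM per kb. Dkk3, at 21.1 and 26.2 CPM per kb, lay within the range of Sfrp2, at 3.59 and 48.0, and Dkk2 at 3.55 and 25.8 CPM per kb overlapped both. Sfrp4 came next at 3.02 and 3.36 CPM per kb, then Frzb at 0.932 and 0.663.

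The share of each member in the summed antagonist level does not depend on scaling between libraries. Sfrp1 made up 34.8% and 31.1% of the sum in ADRCs and 85.9% and 74.2% in 6F cells. Sfrp2 made up 47.8% and 46.2% in ADRCs but 1.57% in 6F library a and 11.9% in 6F library b, below both ADRC libraries in each. The Dkk2 share was also lower in both 6F libraries, at 1.56% and 6.38% against 8.61% and 11.9%, whereas the shares of Dkk3, 7.12% and 8.74% in ADRCs and 9.26% and 6.50% in 6F cells, overlapped. The summed level was 78.5 and 81.3 CPM per kb in ADRCs and 228 and 404 CPM per kb in 6F cells. Without Sfrp1 it was 51.2 and 56.1 against 32.3 and 104 CPM per kb, so that the groups overlapped. These shares and sums were not tested, and a share falls when another member rises.

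**Figure D4:**
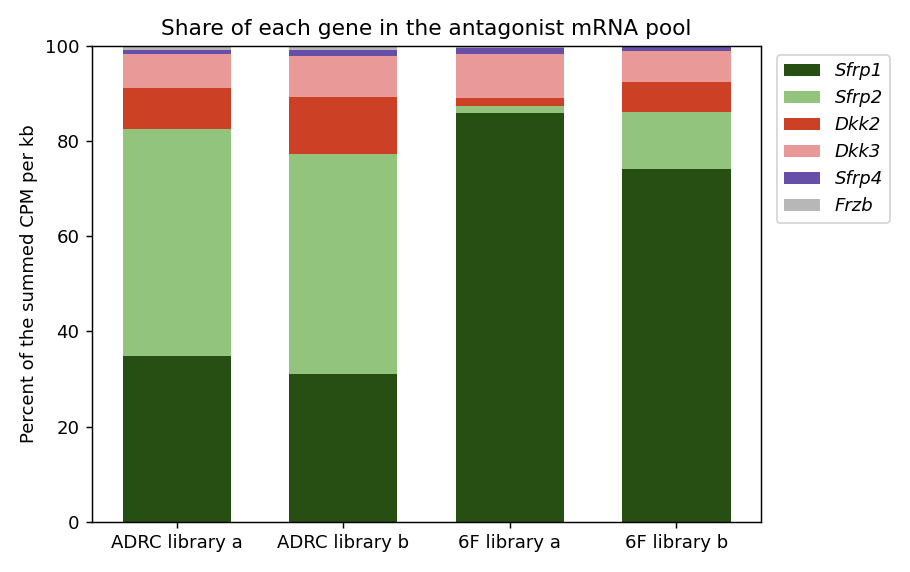
Percent of the summed CPM per kb of the antagonists contributed by each gene in the 4 libraries (bars start at 0; Dkk1 and Wif1 are too low to draw). Sfrp2 is the widest band in both ADRC libraries, and Sfrp1 takes 85.9% and 74.2% in the 6F libraries.

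The authors' deposited table sets the members differently, since its RPKM, a level per kb of exon, divides by all mapped reads. In the authors' deposited table the mean of Sfrp2 was 5.24 RPKM in ADRCs and 16.4 RPKM in 6F cells, and that of Frzb 0.104 and 0.517 RPKM. The log2 ratio of the authors' deposited means was 2.26 at the median of 12392 tested genes, so Sfrp2 at 1.65 lay below that median, Frzb at 2.31 close to it, and Dkk2 at 3.01, Dkk3 at 4.10, Sfrp4 at 4.30 and Sfrp1 at 5.45 above it. The comparison in the authors' deposited table gave fold changes of -1.38 for Sfrp2, 1.81 for Dkk2 and 3.42 for Sfrp4, each at a false discovery rate of 1.

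Other extracellular inhibitors of Wnt signalling moved both ways. Of 11 such genes 4 could be tested, with 1 higher and 2 lower, and the median log2 fold change was -0.91 against 0.07 over all tested genes. Igfbp4, a binding protein of insulin-like growth factors that also inhibits canonical Wnt signalling, had 82 and 125 reads in ADRCs and 1343 and 2485 in 6F cells and rose by 2.45 ± 0.37 (edgeR adjusted p = 0.00301), or 1.86 on omitting 6F library b and 2.88 on omitting 6F library a. Trabd2b, a membrane protease that cleaves Wnt proteins, fell by 1.86 ± 0.23, and Apcdd1, a membrane inhibitor, fell by 1.33 ± 0.32 on the log2 scale. Without 6F library a these were -1.60 and -1.09, and the Apcdd1 call was lost without either ADRC library. Draxin, an axon guidance protein, had 5 and 8 reads in ADRCs and 23 and 9 in 6F cells (edgeR adjusted p = 0.536). Draxin passed the filter through ADRCs alone, and the median of -0.91 rests in part on its value. Sfrp5, Dkk4, Sost, Sostdc1 and Cer1 had 0 reads in all libraries.

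The receptors on which the antagonists act were followed next. Of 16 Frizzleds, co-receptors and other Wnt receptors 14 were tested, with 7 higher, 1 of them (Fzd6) past the filter through 6F cells alone, and 4 lower, and a median log2 fold change of 0.48. Fzd6 is among the genes behind that median, so the filter bears on it and it is a description only. Fewer were called in each direction on omitting either ADRC library, and scaling by library size alone gave 7 and 2. Lrp6, the co-receptor that Dickkopf proteins bind, had 250 and 351 reads in ADRCs and 2499 and 3044 in 6F cells and rose by 1.43 ± 0.20 on the log2 scale (edgeR adjusted p = 0.00242), a call lost without ADRC library a, and omitting 6F library a gave 1.64. Fzd7, a Frizzled of progenitor cells, rose by 1.92 ± 0.23, from 55.6 ± 7.13 to 210 ± 52.4 CPM, and Ror1, a receptor of noncanonical Wnts, rose by 2.25 ± 0.31. Without 6F library a their log2 fold changes were 1.65 and 2.44. Fzd6 had 0 and 2 reads in ADRCs and 95 and 80 in 6F cells, or 25.3-fold on pooled reads (95% exact counting bounds 6.90 and 210). Leaving out 6F library a gave 24.4-fold, leaving out ADRC library a gave 13.7-fold, and leaving out ADRC library b, with 0 reads in the remaining one, gave at least 7.70-fold higher against a floor of 3 reads. Fzd5 and Fzd4 stood at 108 ± 4.13 and 83.9 ± 11.8 CPM in ADRCs and at 100.1 ± 25.6 and 82.5 ± 1.56 CPM in 6F cells. Neither was called, and the log2 fold change of Fzd5 was -0.40 without 6F library a. Of the Dickkopf receptors, Ckap4 fell by 2.24 ± 0.15 (edgeR adjusted p = 0.00022), from 516 ± 5.76 to 110 ± 7.18 CPM, and Kremen1, which removes Lrp6 from the membrane with Dkk1, averaged 54.9 ± 6.11 CPM in ADRCs and 73.0 ± 14.5 CPM in 6F cells (edgeR adjusted p = 0.143). Without 6F library a their log2 fold changes were -2.16 and 0.62. Kremen1 passed the threshold with scaling by library size alone (log2 fold change 0.64, edgeR adjusted p = 0.036). Kremen2, which pairs with Dkk1 in the same way, had 0 reads in ADRCs and 0 and 1 in 6F cells.

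Few Wnt ligands were read deeply. Of 19 genes 7 were tested, with 3 higher and 2 lower (2 and 0 once ADRC library a was omitted, 1 and 0 once ADRC library b was, 3 and 1 once either 6F library was, and 3 and 0 with scaling by library size alone), a median log2 fold change of 0.63, also with 1 gene without ADRC reads set at its bound, and 2 genes at 0 reads in all libraries. Of the 5 calls, Wnt6 and Wnt9a passed the filter through 6F cells alone and Wnt11 through ADRCs alone. Wnt5b, which was not called, holds the median value of 0.63 and also passed through 6F cells alone. The filter therefore bears on this median, which is a description only. Wnt16 had 28 and 19 reads in ADRCs and 188 and 303 in 6F cells and rose by 1.59 ± 0.40 (edgeR adjusted p = 0.0191), a call lost without ADRC library b. Without 6F library a Wnt16 stood at 1.98. Wnt5a, a mostly noncanonical ligand, fell by 0.87 ± 0.25 (edgeR adjusted p = 0.0282), from 55.9 ± 2.79 to 30.7 ± 9.12 CPM (log2 fold change -0.58 on omitting 6F library a), and that call was lost without either ADRC library and with scaling by library size alone. The summed ligand level was 13.6 and 13.2 CPM per kb in ADRCs and 17.0 and 21.4 CPM per kb in 6F cells. Wls, which carries Wnts to the cell surface, rose by 0.47 ± 0.14 on the log2 scale, or 0.49 without 6F library a, and 2 of 2 secretion genes were higher, 1 of them (Porcn) past the filter through 6F cells alone, with 0 called without either ADRC library. Among R-spondins and their receptors 2 of 7 tested were higher and 1 lower. Both higher genes, Rspo3 and Rnf43, passed the filter through 6F cells alone and were not called once either ADRC library was omitted. Rspo3, which strengthens Wnt signals, had 3 reads in each ADRC library and 38 and 123 in 6F cells with a fitted log2 fold change of 2.97 ± 0.84, or 1.80 on omitting 6F library b and 3.62 on omitting 6F library a. Lgr6, an R-spondin receptor, fell by 2.30 ± 0.42, with a log2 fold change of -3.00 on omitting 6F library b and -1.80 on omitting 6F library a.

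Targets of beta-catenin moved both ways. Of 18 listed genes 13 were tested, with 4 higher and 5 lower, and fewer in each direction on omitting either ADRC library. The median log2 fold change was -0.19, which became 0.04 with scaling by library size alone. Of the higher genes Axin2 and Rnf43 passed the filter through 6F cells alone. The filter therefore bears on the median of the targets as well, which is a description only. Nkd1, a feedback inhibitor, had 16 and 21 reads in ADRCs and 207 and 276 in 6F cells and rose by 1.93 ± 0.30 (edgeR adjusted p = 0.00357), or 2.19 without 6F library a. Myc, a growth regulator with many inputs besides beta-catenin, fell by 2.87 ± 0.51, from 125 ± 0.042 to 17.1 ± 13.2 CPM, and its log2 fold change was -3.98 on omitting 6F library b and -2.23 on omitting 6F library a. Wisp1, a matricellular target, and Cd44, a hyaluronan receptor, fell by 2.25 ± 0.24 and 2.13 ± 0.36, and without 6F library a their log2 fold changes were -1.94 and -1.65. That of Cd44 was -2.80 on omitting 6F library b. Nkd2 averaged 10.6 ± 0.676 CPM in ADRCs and 9.29 ± 2.04 CPM in 6F cells (edgeR adjusted p = 0.661). Of 22 genes of cytoplasmic and nuclear signal transduction 20 were tested, with 4 higher and 2 lower. Omitting either ADRC library left fewer calls in each direction, and scaling by library size alone gave 8 and 2. Ctnnb1, beta-catenin itself, stood at 525 ± 22.4 CPM in ADRCs and 805 ± 20.4 CPM in 6F cells and rose by 0.62 ± 0.15, while Tcf7l1, a mostly repressive TCF factor, fell by 1.60 ± 0.20 (edgeR adjusted p = 0.0166 and 0.00163). Without 6F library a they stood at 0.60 and -1.70, and the Ctnnb1 call was lost without either ADRC library.

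**Figure D5:**
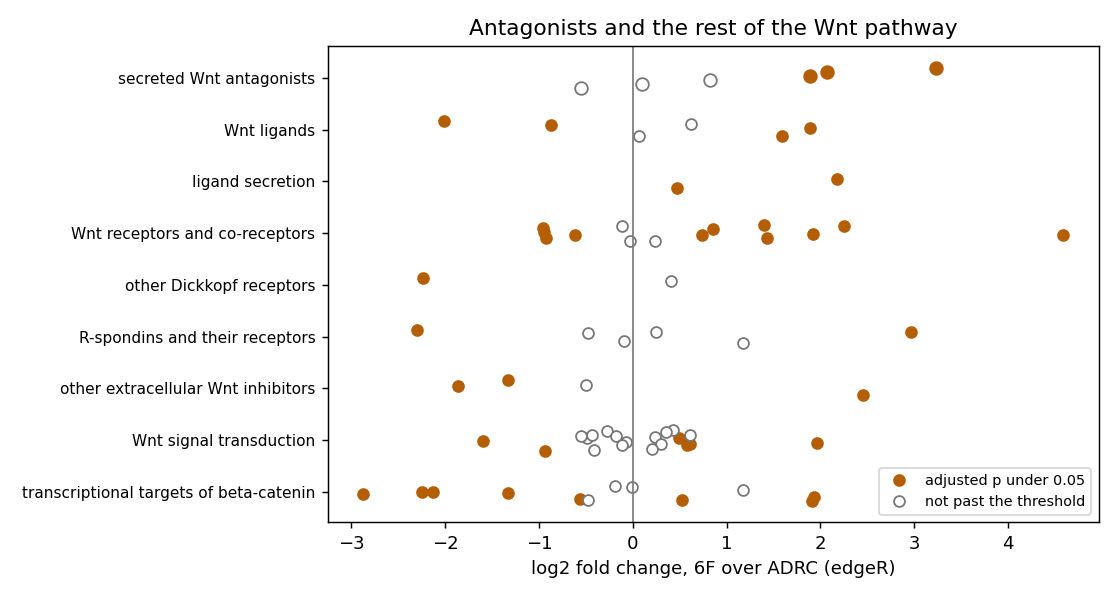
The log2 fold change, 6F over ADRC, of each tested gene of the secreted antagonists (top) and of 8 lists of other Wnt pathway genes, filled where the edgeR adjusted p is under 0.05. Genes with 0 reads in a group are left out, and most lists have called genes on both sides of 0. Some filled genes passed the filter through 6F cells or ADRCs alone, among them Sfrp4, which is not counted as called.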

How the data were processed

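The deposited table of 50600 genes was read by its column names. Per the file headers it holds total exon reads per gene and library, whole-number counts that were used as deposited. The authors also deposited group means in RPKM, and a signed fold change (a score with no fixed range) and a false discovery rate (FDR, an adjusted p-value) from a comparison the file headers name EDGE, whose input no source used here gives. Exon length is another deposited value, the same for all libraries. Reads were placed on GRCm38, per the submitters' processing notes. No source used here names the aligner or counter. Left unused were 52 other columns of per-sample values (13 for each library), intron and unique reads among them. Total RNA was depleted of ribosomal RNA, per the labels' protocols.

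Genes with exon length 0 (18045, with 0 exon reads) were left out. Counts were filtered by filterByExpr, scaled by TMM and tested with edgeR 4.0.16 (quasi-likelihood, Benjamini-Hochberg over 12573 genes, threshold 0.05) in R 4.3.3, a procedure tested on simulated data. The SE is the log2 fold change divided by the square root of F. A fold against 0 reads uses a floor of 3 reads. Intervals and floors cover counting error only. Positions come from GENCODE M21, where 99.6% of gene IDs were found. Mapped reads were solved from the authors' mean RPKM. Nothing in the labels says whether libraries came from separate cultures, and p-values therefore reflect library-to-library spread alone, possibly technical in the ADRC pair. In 6F libraries a and b the Y-linked reads (1671 and 0) and the Xist reads (4 and 10507) differed. The 6F pair was therefore not a repeat of the same RNA. The mean chi-square per gene between the libraries was 1.99 in ADRCs and 33.5 in 6F cells, above the 1 of sampling noise, so each library was counted once.

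The members and lists were chosen with earlier results of these data known. All 8 members are named. Of each of 8 pathway lists, up to 4 called genes with at least 10 CPM in the higher group, by size of change, and up to 2 not called genes, by level, could be named. The 5 sex-linked genes and the genes ahead of Sfrp2 in the 6F comparison were added after the data were seen. Alternatives were DESeq2 size factors, library size scaling, no filter, the DESeq2 1.42.0 Wald test, a minimum mean of 1 CPM and leaving out each library. Chosen after seeing the data were the omission of Rn18s-rs5, Lars2 and Gm26917 (3 genes on which ribosomal RNA reads pile up) and thinning the 6F libraries to 2468012 exon reads.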

Additional observations from a re-analysis of the deposited data

How the results depend on the processing

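Sfrp1 and Dkk3 stayed higher under all 11 alternatives and were called under each that kept every library. Sfrp4 kept its direction wherever it could be tested, but, having passed the filter through 6F cells alone, is not counted as called, and it missed the threshold with the DESeq2 Wald test (log2 fold change 2.10, adjusted p = 0.0819), and it ranged from 1.75 to 2.49 when each library was left out. Leaving out each library gave 2 to 5 members higher, Sfrp4 included where it passed, and 0 to 2 lower, and 1220 to 4454 genes higher and 1165 to 4118 lower over the whole table. With each library left out in turn, the log2 fold change of Sfrp2 ranged from -3.35 to 0.36 and that of Dkk2 from -1.20 to 1.63. Fits without a 6F library take the spread from the ADRC pair and assume that the lone library varies like it. Their p-values and counts of calls are therefore not given. Pathway genes that were not called changed sign: Wnt4 from -0.12 to 0.22, Wnt5b from -0.074 to 2.22, Fzd5 from -0.40 to 0.15, Fzd4 from -0.19 to 0.10 and Nkd2 from -0.40 to 0.032 without single libraries. With scaling by library size, Fzd5 stood at 0.12, Fzd4 at 0.20 and Nkd2 at 0.040, and the median of all tested genes moved from 0.07 to 0.30. Fzd4 stood at 0.024 without the low-count filter. The cause was not tested. Dkk1 had no reads to fit, Wif1 could be fitted only without the filter, on 2 reads, and Frzb and Sfrp4 fell below the filter in thinned libraries. Unique exon reads and intron reads were not run, since only 1 measure per library could be matched to a group. No paired analysis was possible because the columns carry no replicate number.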
